A study of Mus musculus with 18 samples.

Results

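The transcripts of 10 early response genes, Egr1, Egr2, Egr3, Nr4a1, Nr4a2, Nr4a3, Klf2, Klf4, Klf6 and Ier2, were followed in the nuclear and cytoplasmic RNA of mouse myofibers. All non-control probes whose gene name in the scanner files is one of these symbols were taken, which gave 11 probes on 20 spots of the 55681 probe names and 59305 non-control spots of the array. Nr4a2 had 2 probes and each other gene had 1, and the Nr4a3 probe was printed 10 times on every array. All 11 probes gave a level on all 18 arrays, 191 of these 198 levels rested on a signal well above background, and none was saturated. No other probe of the array shared a run of 30 bases with any of them.

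The 18 samples were pools of 5 to 10 myofibers from wild-type CD1 female mice of 3 months, 3 pools for each fraction of the extensor digitorum longus (EDL), the soleus and the tibialis anterior (TA). EDL and TA are fast muscles and the soleus is a slow-oxidative muscle. Muscles were digested with collagenase, uncontracted fibers were picked by hand and washed, and the fibers were broken in a detergent buffer. The nuclei were then pelleted at low speed and the supernatant was kept as cytoplasm, so that a nuclear array holds the RNA of pelleted material and not of nuclei sorted by type. The EDL and soleus pools of the same number came from the same 2 mice, in both fractions. The TA nuclear pools came from mice 1, 2 and 3, and the TA cytoplasmic pools from mice 5 and 1, mice 5 and 2, and mouse 9. No animal or muscle was treated, and p-values here measure the spread between such pools.

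Early response genes are switched on within minutes of a stimulus, from transcription factors that already sit in the cell, and their short-lived mRNAs mostly encode further transcription factors. Serum response factor (SRF), which binds the CArG box, and the cAMP response element binding protein CREB, which binds the CRE, are the best known of those factors. The Egr proteins are zinc finger activators, the Nr4a proteins are orphan nuclear receptors that act without a known natural ligand, and the Klf proteins are zinc finger factors of the Krüppel-like family. In skeletal muscle the Nr4a receptors are known for their response to exercise and adrenergic signals, and for control of glucose and fat metabolism genes.

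The promoters of 4 members are shown for these elements. The Egr2 window shown holds 2 copies of the CRE half-site, called the core here, and a CArG box. The Nr4a windows hold the core alone. RefSeq windows of 250 bases upstream of the start (GRCm38.p6) were at hand for 7 of the 10 genes. The CRE core was searched as TGACG or CGTCA, which are the same element on either strand, and the CArG box on both strands. The core was in 17.8% of the 32851 windows of this length, 4 or more cores were in 0.137% of them (45 windows), and a CArG box was in 1.47%. The windows of Nr4a1, Nr4a2 and Nr4a3 each held 4 cores. Capitals mark cores and, in Egr2, also the CArG box that starts 72 bases upstream of the start. No letter belongs to both elements. The sequences run 5′ to 3′ along the strand of the gene:
Egr2, chr10:67537619-67537868, plus strand: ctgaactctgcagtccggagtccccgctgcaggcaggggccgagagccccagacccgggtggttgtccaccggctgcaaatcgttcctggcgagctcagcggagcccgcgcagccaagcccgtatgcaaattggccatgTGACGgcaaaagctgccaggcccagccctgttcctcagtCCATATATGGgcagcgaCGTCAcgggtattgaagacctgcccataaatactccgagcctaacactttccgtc
Nr4a1, chr15:101266596-101266845, plus strand: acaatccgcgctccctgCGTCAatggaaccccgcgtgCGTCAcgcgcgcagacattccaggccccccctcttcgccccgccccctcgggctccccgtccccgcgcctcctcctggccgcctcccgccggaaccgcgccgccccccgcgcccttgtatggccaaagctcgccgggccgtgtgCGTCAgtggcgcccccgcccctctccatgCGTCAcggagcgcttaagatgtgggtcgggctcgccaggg
Nr4a2, chr2:57124004-57124253, minus strand: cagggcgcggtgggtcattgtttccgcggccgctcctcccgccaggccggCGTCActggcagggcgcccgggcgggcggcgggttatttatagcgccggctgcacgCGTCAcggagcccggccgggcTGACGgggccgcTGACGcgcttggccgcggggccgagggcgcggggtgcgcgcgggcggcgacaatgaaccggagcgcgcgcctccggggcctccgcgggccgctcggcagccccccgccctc
Nr4a3, chr4:48045055-48045304, plus strand: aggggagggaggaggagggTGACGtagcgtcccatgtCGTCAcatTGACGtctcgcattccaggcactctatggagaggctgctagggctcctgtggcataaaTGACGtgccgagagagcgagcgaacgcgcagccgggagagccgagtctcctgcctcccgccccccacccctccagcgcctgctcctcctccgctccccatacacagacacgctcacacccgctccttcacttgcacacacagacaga

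The Klf2 and Klf4 windows held 1 core each and no CArG box, and the Klf6 window held neither. Egr2 had 5 windows for alternative starts, 4 of them with a CArG box. Those from 67537619, 67537620 and 67537680 overlap, hold the same box and are the only ones with the core. The window from 67535249 held neither element. These are matches of letters only.

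What each probe can see was read from the scanner files, which place the probes on mm9. The 60-base Nr4a3 probe spans 3187 bases of chr4:48080690-48083876 (plus strand), so it lies across a splice junction. The brighter Nr4a2 probe, chr2:56960699-56960758 (minus strand), and those of Egr3, chr14:70479222-70479281 (plus strand), and Ier2, chr8:87186214-87186273 (minus strand), lie in 1 genomic block, where spliced and unspliced RNA give the same match. The 4 probes are shown because their readouts are set side by side in what follows:
Nr4a3 probe: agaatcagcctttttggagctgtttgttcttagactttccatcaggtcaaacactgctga
Nr4a2 probe: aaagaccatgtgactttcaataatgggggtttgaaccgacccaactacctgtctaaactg
Egr3 probe: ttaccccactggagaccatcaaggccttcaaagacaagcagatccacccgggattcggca
Ier2 probe: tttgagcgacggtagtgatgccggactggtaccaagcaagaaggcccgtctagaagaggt

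Some facts of the arrays touch all results. Levels are log2 intensities after quantile normalization, so each is relative to the RNA on its own array and not a copy number, and levels of different probes are not compared. All EDL and soleus cytoplasmic arrays and TA cytoplasm 1 were on 1 slide, all EDL and soleus nuclear arrays on another, and the other TA arrays on 2 further slides, so slide and fraction cannot be told apart in EDL and soleus, and slide and muscle largely cannot in comparisons with TA. The median SD of a probe over replicates was 0.12 to 0.16 in the nuclear groups and 0.28 to 0.42 in the cytoplasmic groups. With a shared spread, comparisons between nuclear groups are judged partly by the wider cytoplasmic spread. Those between cytoplasmic groups are judged partly by the narrower nuclear spread. Soleus cytoplasm 2 and TA cytoplasm 1 stood apart from the other arrays of their groups in a principal component analysis. The summed level of 5 nuclear RNAs (Malat1, Neat1, Xist, Meg3 and Kcnq1ot1) was 12.46 to 13.83 on the nuclear arrays and 9.73 to 10.99 on the cytoplasmic arrays. All 10 myofiber markers were measured, with summed levels of 16.78 to 18.01 over the 18 arrays.

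**Figure D1:**
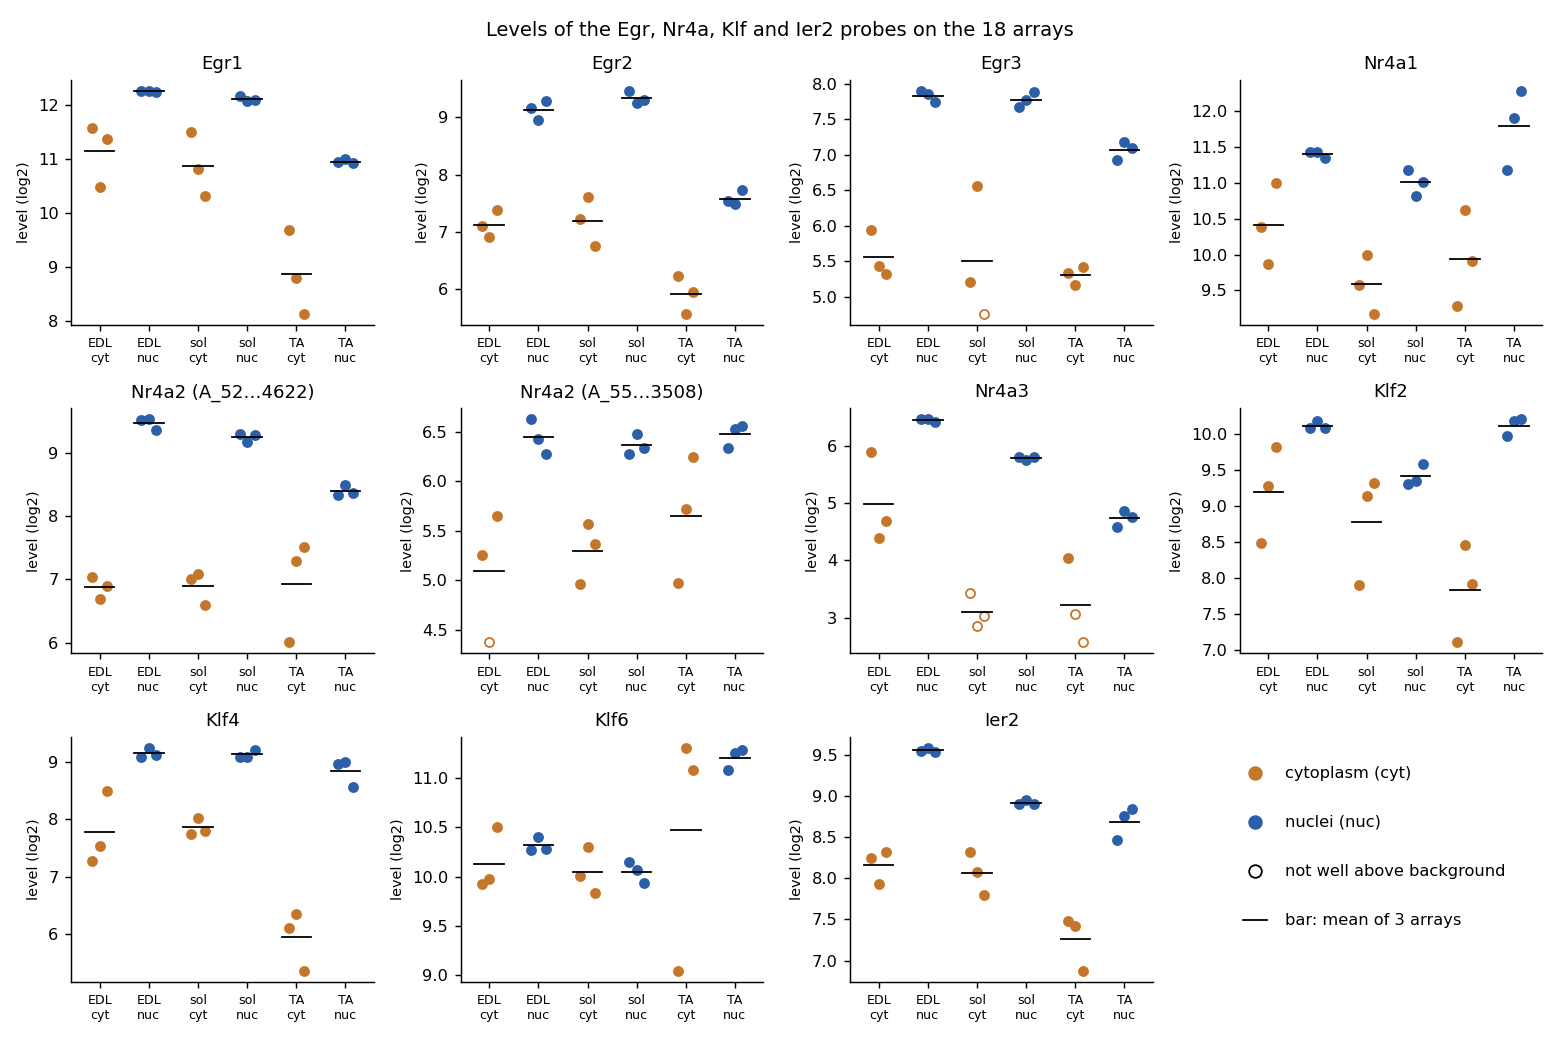
Log2 level of each member probe (vertical axis) on each array, grouped on the horizontal axis by muscle and fraction; each point is 1 pool (open where not well above background) and each short line a group mean. The nuclear points lie above and closer together than the cytoplasmic points for most probes, and Klf6 is the exception.

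The first question was in which fraction these transcripts were measured most strongly. Over the 3 muscles, 10 of the 11 probes were higher in nuclei than in cytoplasm (limma, adjusted p below 0.05), and the probe of Klf6 was not. Of all 40541 probes tested, 31.2% were higher in nuclei. The median difference of the members was 1.47 on the log2 scale, and that of all probes tested was -0.08. Within a muscle, 9 probes were higher in EDL nuclei against 20.0% of all probes, 9 in soleus nuclei against 18.7%, and 10 in TA nuclei against 19.2%.

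The Egr genes were led by Egr2 and Egr3. Egr2 encodes an activator best known from hindbrain patterning and from myelinating Schwann cells. Its log2 level was 7.10, 6.91 and 7.37 in EDL cytoplasm and 9.17, 8.95 and 9.29 in EDL nuclei. In soleus it was 7.23, 7.61 and 6.75 in cytoplasm and 9.46, 9.26 and 9.30 in nuclei, and in TA 6.22, 5.57 and 5.95 in cytoplasm and 7.53, 7.48 and 7.72 in nuclei. In each muscle all nuclear pools were above all cytoplasmic pools, and both fractions were lowest in TA. The difference between nuclei and cytoplasm over the 3 muscles was 1.94 (SE 0.13, n = 9 pools for each fraction, limma adjusted p = 9.28e-09), or 3.84-fold.

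Egr3, needed for the formation of muscle spindles, was at 5.94, 5.42 and 5.32 in EDL cytoplasm and 7.90, 7.86 and 7.75 in EDL nuclei. Soleus cytoplasm was more scattered, at 5.2, 6.55 and 4.76, with 1 of these arrays not well above background, and soleus nuclei were at 7.67, 7.77 and 7.89. TA was at 5.33, 5.17 and 5.42 in cytoplasm and 6.93, 7.19 and 7.09 in nuclei. No nuclear pool overlapped with the cytoplasm of its muscle, and the difference over the 3 muscles was 2.10 (SE 0.19, limma adjusted p = 1.47e-07), or 4.30-fold.

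Egr1 encodes a zinc finger activator widely used as a marker of recent stimulation. EDL cytoplasm was at 11.58, 10.49 and 11.38 and EDL nuclei at 12.26, 12.27 and 12.24. Soleus was at 11.50, 10.81 and 10.32 in cytoplasm and 12.17, 12.07 and 12.10 in nuclei, and TA at 9.69, 8.80 and 8.14 in cytoplasm and 10.95, 11.00 and 10.93 in nuclei. The groups did not overlap in any muscle, and the nuclear pools lay closer together than the cytoplasmic pools, as they did for most members. The difference over the 3 muscles was 1.47 (SE 0.21, limma adjusted p = 1.48e-05). It was 1.10 in EDL (adjusted p = 0.0205), and without EDL cytoplasm 2 this fell to 0.77 with an adjusted p of 0.110.

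Among the nuclear receptors, Nr4a2 was measured by both of its probes. The brighter probe was at 7.04, 6.70 and 6.90 in EDL cytoplasm and 9.51, 9.53 and 9.35 in EDL nuclei. In soleus it was at 7.01, 7.08 and 6.60 in cytoplasm and 9.30, 9.17 and 9.28 in nuclei, and in TA at 6.01, 7.28 and 7.51 in cytoplasm and 8.33, 8.49 and 8.37 in nuclei. All nuclear pools were above all cytoplasmic pools of the same muscle. The difference was 2.13 over the 3 muscles (SE 0.17, limma adjusted p = 3.88e-08) and reached 2.58 in EDL, or 5.99-fold. The dimmer probe, chr2:56959637-56959696 on the minus strand, gave 1.08 (SE 0.19, adjusted p = 9.08e-05) and went the same way in each muscle. Its TA difference of 0.83 was close to the threshold (adjusted p = 0.0398) and missed it without TA cytoplasm 1 or 2 or without any TA nuclear pool, with adjusted p from 0.0587 to 0.192.

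Nr4a1, also called Nur77, was bright in all groups. It was at 10.39, 9.87 and 10.99 in EDL cytoplasm and 11.43, 11.43 and 11.35 in EDL nuclei. Soleus was at 9.58, 10.00 and 9.18 in cytoplasm and 11.18, 10.82 and 11.01 in nuclei, and TA at 9.29, 10.62 and 9.90 in cytoplasm and 11.17, 11.90 and 12.28 in nuclei. Again no pools overlapped between the fractions of a muscle. The difference was 1.42 over the 3 muscles (SE 0.21, limma adjusted p = 2.04e-05). In EDL it was 0.99 (adjusted p = 0.0345), and it missed the threshold without EDL cytoplasm 1 or 2 or without any EDL nuclear pool, with adjusted p from 0.0659 to 0.152.

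Nr4a3, or Nor1, was above background in all nuclei but on few arrays of soleus and TA cytoplasm. Its means over the 10 spots were 5.90, 4.39 and 4.69 in EDL cytoplasm and 6.46, 6.46 and 6.42 in EDL nuclei. Soleus was at 3.43, 2.86 and 3.02 in cytoplasm, none of them well above background, and at 5.81, 5.75 and 5.80 in nuclei. TA was at 4.04, 3.07 and 2.58 in cytoplasm, of which 1 was well above background, and at 4.57, 4.87 and 4.76 in nuclei. The fractions did not overlap in any muscle. The fitted difference over the 3 muscles was 1.88 (SE 0.21, limma adjusted p = 1.26e-06), but it includes the arrays that were not well above background and is no exact size. In soleus the fitted nuclear level was 6.41-fold higher (adjusted p = 5.62e-05), for the authors' background correction only. This value too rests on cytoplasmic arrays that were not well above background and is no exact size. With normexp correction, which adds an offset to dim signals, the log2 difference was 0.69 in soleus and 0.59 over the 3 muscles (both past the threshold), and the soleus call was lost with the nuclear arrays averaged to 1 sample (adjusted p = 0.0566).

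The repeated Nr4a3 spots set the error of the spot beside the spread between pools. In EDL nuclei the SD between the spots of an array was 0.126 and the SD between the 3 array means was 0.026. In EDL cytoplasm the spots of an array differed by an SD of 0.242, while the array means differed by 0.798. The soleus nuclear array means also differed less than their spots, 0.032 against 0.107. A mean of up to 10 spots varies less than a single spot by averaging alone. In these nuclei the spread between pools could therefore not be told apart from that of the spots. The spread of Nr4a3 in EDL cytoplasm thus lay mostly between arrays. In TA cytoplasm, where 3 to 9 of the 10 spots had a positive signal, both were high, at 0.569 between spots and 0.744 between arrays.

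**Figure D2:**
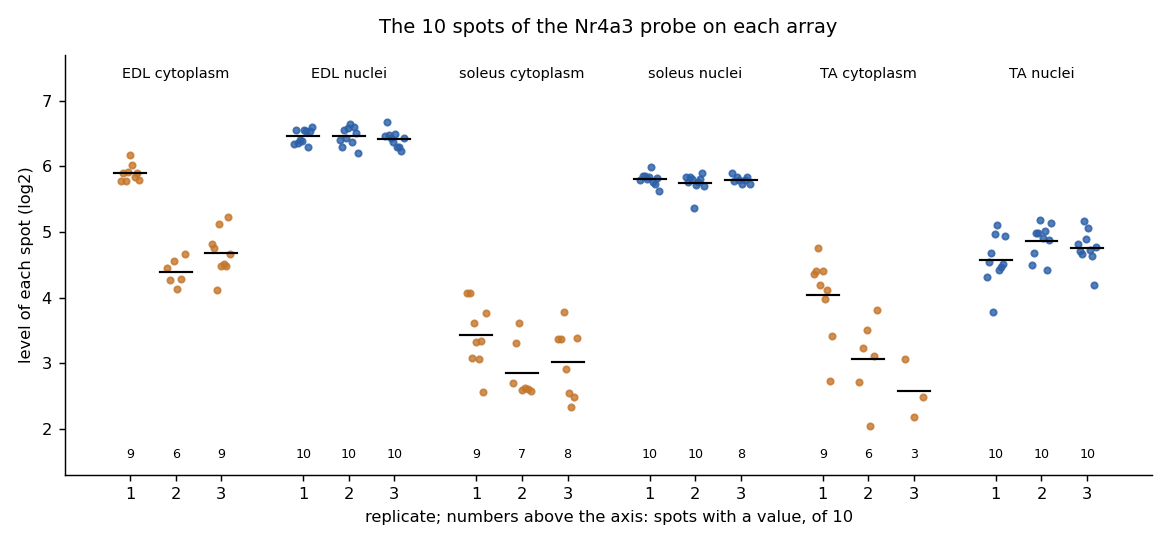
Log2 level of the single Nr4a3 spots (vertical axis) on each of the 18 arrays (horizontal axis, by group), with a line at each array mean. EDL cytoplasm 1, at 5.90, lies above the other EDL cytoplasmic arrays at 4.39 and 4.69 in nearly all of its spots.

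The Klf genes did not move as 1 group. Klf4, a pluripotency factor that also acts in epithelia and vessel walls, was at 7.28, 7.54 and 8.50 in EDL cytoplasm and 9.09, 9.25 and 9.13 in EDL nuclei. Soleus was at 7.75, 8.03 and 7.8 in cytoplasm and 9.10, 9.10 and 9.22 in nuclei, and TA at 6.11, 6.34 and 5.36 in cytoplasm and 8.96, 8.99 and 8.56 in nuclei. The nuclear levels of the 3 muscles were close together, and TA cytoplasm was below the cytoplasm of both other muscles without overlap. The nuclear excess was 1.85 over the 3 muscles (SE 0.17, limma adjusted p = 1.56e-07). In TA it was 2.90 (SE 0.29, adjusted p = 3.76e-06), or 7.48-fold, which ranked 137 among 43699 probes.

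Klf2, a factor that keeps vessel-lining endothelium quiescent under flow, was at 8.49, 9.29 and 9.82 in EDL cytoplasm and 10.08, 10.18 and 10.09 in EDL nuclei. Soleus was at 7.90, 9.14 and 9.32 in cytoplasm and 9.30, 9.35 and 9.59 in nuclei, and these overlapped. TA was at 7.11, 8.45 and 7.92 in cytoplasm and 9.98, 10.18 and 10.21 in nuclei, far apart. The difference was 1.28 over the 3 muscles (SE 0.22, limma adjusted p = 0.000118) and 2.30 in TA (SE 0.39, adjusted p = 0.00021). It was 0.92 in EDL (adjusted p = 0.0644, and 0.0296 with same-numbered pools paired) and 0.63 in soleus (95% interval -0.20 to 1.46, adjusted p = 0.211). The soleus value fell to 0.19 without soleus cytoplasm 1, and the EDL value to 0.57 without EDL cytoplasm 1.

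Klf6, a broadly expressed Krüppel-like factor, was at 9.92, 9.97 and 10.50 in EDL cytoplasm and 10.27, 10.40 and 10.28 in EDL nuclei. Soleus was at 10.00, 10.30 and 9.83 in cytoplasm and 10.15, 10.07 and 9.93 in nuclei, and both muscles overlapped between fractions. TA was at 9.04, 11.31 and 11.08 in cytoplasm and 11.08, 11.26 and 11.29 in nuclei. The low TA cytoplasm 1 was on the slide of the EDL and soleus cytoplasm, and the other TA arrays were on the slides of the TA nuclei or of the same scan day. The difference over the 3 muscles was 0.31 (SE 0.24, 95% interval -0.20 to 0.81, limma adjusted p = 0.258), and within the slide that held both TA fractions it was -0.10. The TA difference of 0.73 (adjusted p = 0.148) rested on TA cytoplasm 1, without which it was 0.01, and it was 1.15 without TA cytoplasm 2 (adjusted p = 0.0321).

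Ier2, a small nuclear protein induced by growth factors, was at 8.24, 7.94 and 8.32 in EDL cytoplasm and 9.55, 9.59 and 9.54 in EDL nuclei. Soleus was at 8.33, 8.07 and 7.8 in cytoplasm and 8.90, 8.95 and 8.90 in nuclei, and TA at 7.48, 7.41 and 6.88 in cytoplasm and 8.46, 8.75 and 8.84 in nuclei. No groups overlapped, and the difference was 1.23 (SE 0.11, limma adjusted p = 2.17e-07), or 2.34-fold, with 1.40 in EDL, 0.85 in soleus and 1.43 in TA.

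Counted by pools alone, all nuclear values were above all cytoplasmic values for 10 of 11 probes in EDL (32.0% of all probes), 9 in soleus (28.5%) and 10 in TA (22.6%). Klf6 overlapped in each muscle and Klf2 in soleus, so that 9 of the 11 probes were separate in each of the 3 muscles, against 14.5% of all probes. Within the TA arrays of the shared scan day, 9 of the 11 probes were higher in nuclei (20.6% of all probes), with Klf4 at 2.99. The shared slide held 1 cytoplasmic array, which has no spread of its own, and Klf4 was at 2.50 there. The probe that lost its call within the scan day was the dimmer probe of Nr4a2.

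**Figure D3:**
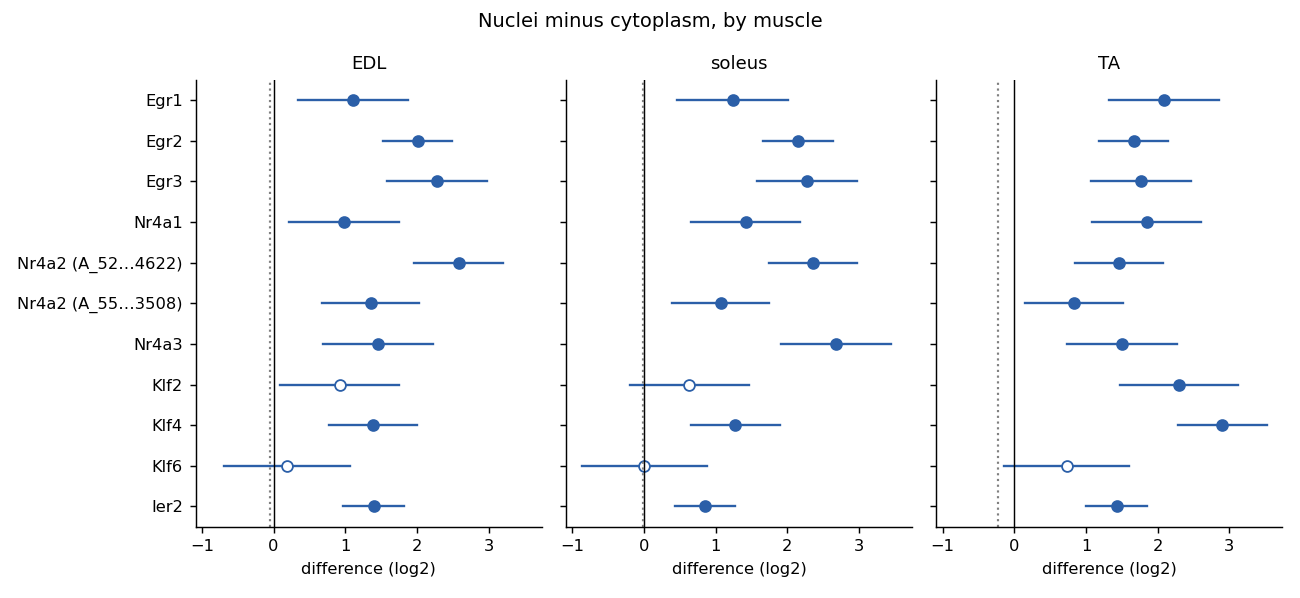
Nuclei minus cytoplasm on the log2 scale (horizontal axis) for each member probe (vertical axis) in EDL, soleus and TA; points are fitted differences (filled past the threshold), bars 95% intervals and dotted lines the medians of all probes. All differences but those of Klf6 and of Klf2 in EDL and soleus are past the threshold, and Klf4 in TA is at 2.90.

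Markers of other cells on the fibers moved with the fractions too. All 10 endothelial markers were higher in nuclei over the 3 muscles, where 31.2% of all probes were higher and 38.6% lower, with summed log2 levels of 12.89 to 13.48 in nuclei and 11.36 to 12.94 in cytoplasm. In TA these sums were 13.29 to 13.48 in nuclei and 11.36 to 12.17 in cytoplasm, beside the large TA differences of Klf2 and Klf4. All 6 Schwann cell markers (10.42 to 11.86 against 9.40 to 10.61) and 7 of 8 connective tissue markers measured (15.22 to 16.17 against 14.26 to 15.49) were higher in nuclei, and so were 8 of the 10 myofiber markers. Of the 7 macrophage markers measured, 5 were lower in nuclei and none was higher (11.43 to 11.67 against 11.78 to 12.92). Of the satellite cell markers, 2 of the 3 that could be tested were higher in nuclei, and 1 of 3 erythroid markers was lower. All 10 endothelial markers were detected on every array. Their part in the members' differences was not tested, and fewer cells of a type cannot be told apart from less RNA per cell in such pools.

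Whether the fraction difference depended on the muscle was asked with the interaction of muscle and fraction. No member probe passed (1.57% of all probes did), and 4 of the 11 had an unadjusted p under 0.05. These were Klf4 (limma adjusted p = 0.0717), Klf2 (0.197), the brighter Nr4a2 probe (0.261) and Nr4a3 (0.298). Taken muscle by muscle, the Klf4 difference was larger in TA than in soleus by 1.63 (SE 0.41, 95% interval 0.75 to 2.50, limma adjusted p = 0.0432, against 3.33% of all probes called). This call was close to the threshold and was lost under 16 of 29 alternatives, 10 of them with 1 array left out, with values down to 0.59 without scaling between arrays. TA minus EDL was 1.52 (95% interval 0.65 to 2.39) and missed the threshold (adjusted p = 0.136, with 0.339% of all probes called), and soleus minus EDL was -0.11 (95% interval -0.98 to 0.76, with 0.0286% called).

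The muscles were then compared within each fraction. In nuclei, 5 member probes were lower in TA than in EDL, against 9.81% of all probes, and none was higher. These were Nr4a3 at -1.71 (SE 0.36, limma adjusted p = 0.00648), Egr2 at -1.56 (SE 0.23, 0.000791), Egr1 at -1.30 (SE 0.36, 0.0246), the brighter Nr4a2 probe at -1.07 (SE 0.29, 0.0223) and Ier2 at -0.88 (SE 0.20, 0.00928). The dimmer Nr4a2 probe was at 0.03 and so did not follow the brighter probe. Klf2 was at 0.002 (95% interval -0.83 to 0.83) and Klf4 at -0.32 (95% interval -0.93 to 0.30), neither past the threshold. With slide as a random block these calls were all lost.

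Against soleus nuclei, Egr2 (-1.76, SE 0.23, limma adjusted p = 0.000148) and Egr1 (-1.16, SE 0.36, 0.0353) were lower in TA, while 11.9% of all probes were. Both calls were lost with slide as a random block. Klf6 was at 1.16 in the other direction (adjusted p = 0.0599). Soleus and EDL nuclei, which shared a slide and the same mice, showed no member past the threshold (limma, 1.56% of all probes), and 1 had an unadjusted p under 0.05, Ier2 at -0.64 (adjusted p = 0.167).

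The calls in these nuclear comparisons depended on which arrays entered the fit. When only the arrays of the groups compared entered the fit, 3 probes were lower in soleus than in EDL nuclei (5.6% of all probes). These were Klf2 at -0.71 (limma adjusted p = 0.0104), Nr4a3 at -0.66 (0.00368) and Ier2 at -0.64 (0.00395), each without overlap between pools. Egr3 then joined the probes that were lower in TA than in EDL nuclei, which became 6 (25.8% of all probes), and Klf6 was higher in TA at 0.89 (0.0016, 17.5%). Against soleus nuclei, 5 probes were then lower in TA (27.4%), and Klf6 at 1.16 (0.000663) and Klf2 at 0.71 (0.0053) were higher (18.3%).

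In cytoplasm, TA was lower than EDL for 6 member probes (7.33% of all probes). The largest were Egr1 at -2.28 (SE 0.36, limma adjusted p = 0.00236), Klf4 at -1.84 (SE 0.29, 0.0023) and Nr4a3 at -1.76 (SE 0.36, 0.0088), and Klf2, Egr2 and Ier2 followed at -1.37, -1.21 and -0.91. Against soleus, Egr1, Klf4, Egr2 and Ier2 were lower in TA at -2.0, -1.92, -1.28 and -0.81, and 12.8% of all probes were lower. TA cytoplasm 1, which shared the slide of EDL and soleus cytoplasm, had the lowest level on that slide for Egr1, Egr2, Klf2, Klf4 and Ier2. It was also lowest there for Klf6 (9.04) and the brighter Nr4a2 probe (6.01). For these 2 probes TA cytoplasm 2 and 3 were above all EDL and soleus cytoplasmic pools (11.31 and 11.08 for Klf6, 7.28 and 7.51 for Nr4a2). TA cytoplasm 1 also had the lowest mean member profile of all arrays (-1.45), with TA cytoplasm 3 close to it (-1.41). That mean includes the genes just named, so it does not show whether other genes were low too. Fitted on the arrays of the groups compared alone, 0 members passed in cytoplasm by limma, where 0.00216% of all probes were lower in TA than in EDL, 0.528% lower in TA than in soleus and 0.0066% lower in soleus than in EDL. The counts at an unadjusted p under 0.05 were then 6, 4 and 1.

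Nr4a3 was the only member past the threshold between soleus and EDL cytoplasm (0.570% of all probes were lower in soleus). The fitted EDL level was 3.70-fold higher (limma adjusted p = 0.0158), again for the authors' background correction only. No soleus array was well above background, so this is no exact size. All EDL pools, from 4.39 to 5.90, were above all soleus pools, from 2.86 to 3.43. With normexp correction soleus minus EDL was -0.39 on the log2 scale (adjusted p = 0.0903). The call was also lost without soleus cytoplasm 2, with array weights, with the nuclear arrays averaged and on the arrays of these groups alone, with adjusted p from 0.0632 to 0.348.

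**Figure D4:**
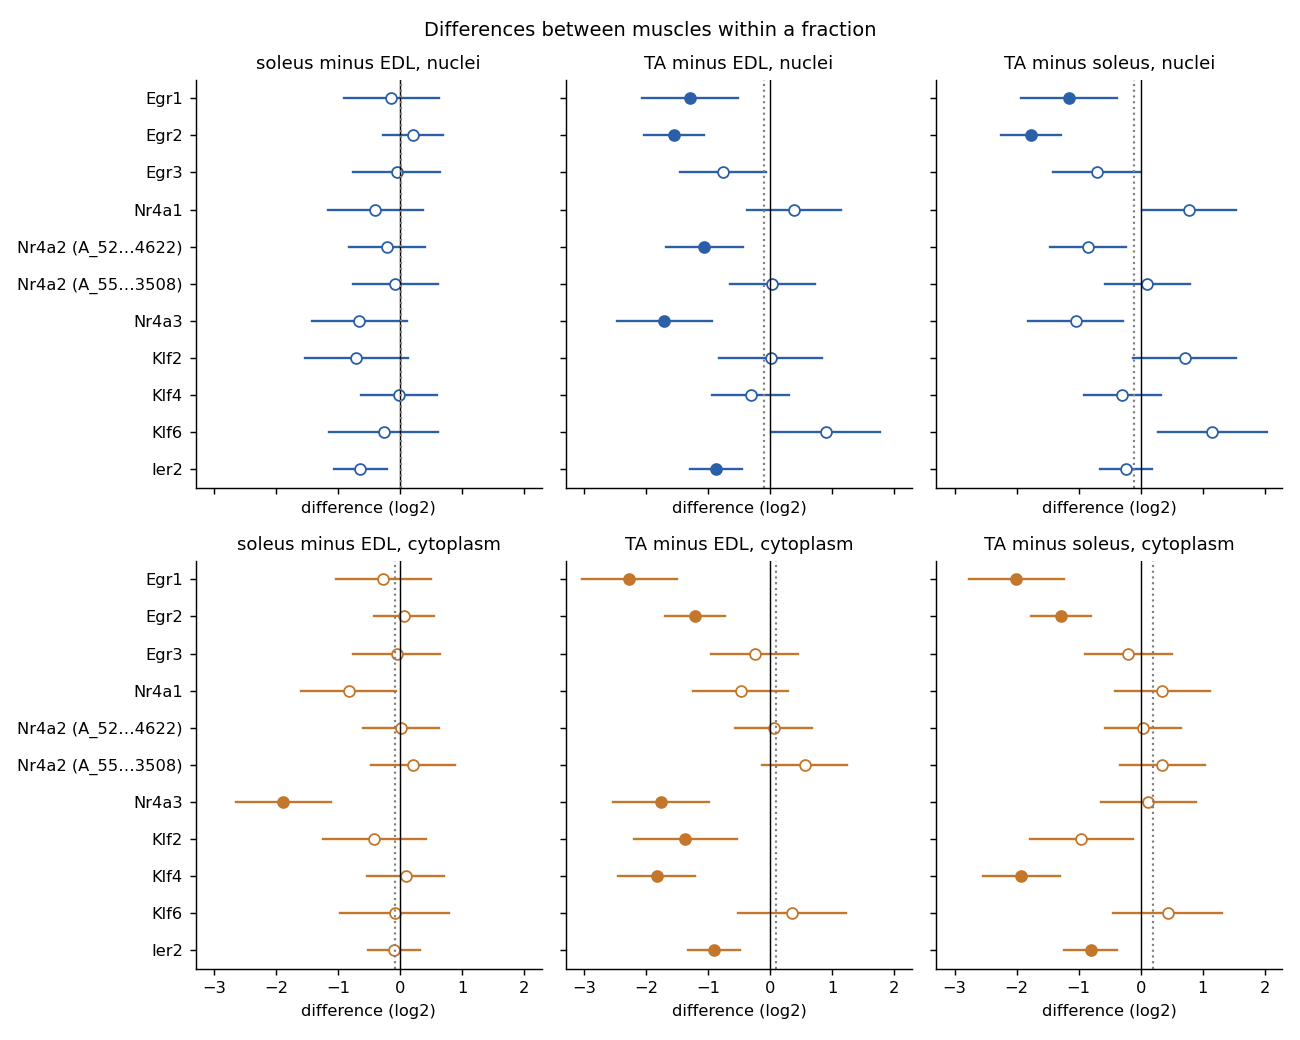
Differences between muscles on the log2 scale (horizontal axis) for each member probe (vertical axis), in nuclei and in cytoplasm; points are fitted differences (filled past the threshold), bars 95% intervals and dotted lines the medians of all probes. In nuclei Egr1, Egr2, Nr4a3 and the brighter Nr4a2 probe lie to the lower side in TA, and Klf2 and Klf4 are near 0 against EDL.

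Cdh15, a satellite cell cadherin, stood out in TA, and in nuclei most of its list did not follow. Cdh15 was at 11.88 to 12.19 in TA nuclei and 6.26 to 6.63 in EDL nuclei. In TA minus EDL nuclei Pax7 was at 1.98 (limma adjusted p = 0.0129), while Megf10 at 0.54 and Vcam1 at 0.63 missed the threshold. In TA minus soleus nuclei Cdh15 was at 5.22, while Pax7 at 0.42, Vcam1 at 0.01 and Megf10 at -1.01 missed it. More of the list followed in TA minus EDL cytoplasm. Cdh15 at 3.67, Megf10 at 1.48 and Vcam1 at 1.12 passed there (limma adjusted p = 0.0235, 0.0371 and 0.0352), and Pax7 at 1.47 did not (0.0758). In TA minus soleus cytoplasm Cdh15 was at 3.54 (limma adjusted p = 0.0138), while Megf10 at -0.76 and Vcam1 at 0.10 missed the threshold. The summed level of the satellite cell markers was 7.46 on TA cytoplasm 1 and 12.58 and 11.62 on TA cytoplasm 2 and 3. This was the same split by slide as that of Klf6. The sum adds linear levels and follows its brightest gene. In TA nuclei it was 11.97 to 12.26, close to Cdh15 alone, so it does not show a shift of the whole list. The lists hold 7 satellite cell genes, of which Myf5, Calcr and Chrdl2 had too few values for a test between the nuclei. Their part in the muscle differences was not tested.

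The other genes of the pathway were taken from lists. Of 8 AP-1 genes, the partners that the same stimuli induce, 5 were higher in nuclei over the 3 muscles and none was lower, with a list median of 0.88. Of all probes, 31.2% were higher and 38.6% lower, which holds for each list that follows. These were Fos at 1.96 (SE 0.21), Junb at 1.96 (SE 0.19), Fosb at 1.55, Jun at 0.99 and Atf3 at 0.77. The 5 were also lower in TA than in EDL nuclei, from -0.62 for Jun to -1.96 for Junb, against 9.81% of all probes. Jund, which is expressed without a stimulus in most cells, was at 0.11 between the fractions, and Fosl2 at 0.02 and Fosl1 at -0.18 did not pass either.

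Of 39 other early response genes tested, 32 were higher in nuclei and none was lower, with a list median of 1.10. They included the survival gene Ier3 at 2.50 (SE 0.25), the cytokine signal inhibitor Socs3 at 2.40 (SE 0.29), the clock gene Per1 at 2.31 (SE 0.36) and the kinase gene Sik1 at 2.24 (SE 0.25). In TA against EDL nuclei, 14 of 40 were lower and 2 were higher, against 9.81% and 7.59% of all probes. Socs3 was at -2.61 (SE 0.51, limma adjusted p = 0.00407), while Per1 was at 0.01 (adjusted p = 0.990).

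The paralogs of the members were less uniform. Of 12 tested, 7 were higher in nuclei, led by Klf7 at 1.69 (SE 0.14) and Klf13 at 1.28 (SE 0.16), and with Klf15, a metabolic regulator of muscle, at 1.10 (SE 0.17). Klf17 at -2.18 (SE 0.20) and Klf1, the erythroid Krüppel-like factor, at -2.13 (SE 0.18) were among the 3 that were lower. Of 22 genes of the SRF and CREB pathways and their corepressors, 11 were higher and 4 lower, with a list median of 0.23. Crem, whose short form represses CREB targets, was at 1.56 (SE 0.19) and Nab1, a corepressor of the Egr proteins, at 0.92 (SE 0.12). Srf itself was at 0.08 (SE 0.09, limma adjusted p = 0.434).

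**Figure D5:**
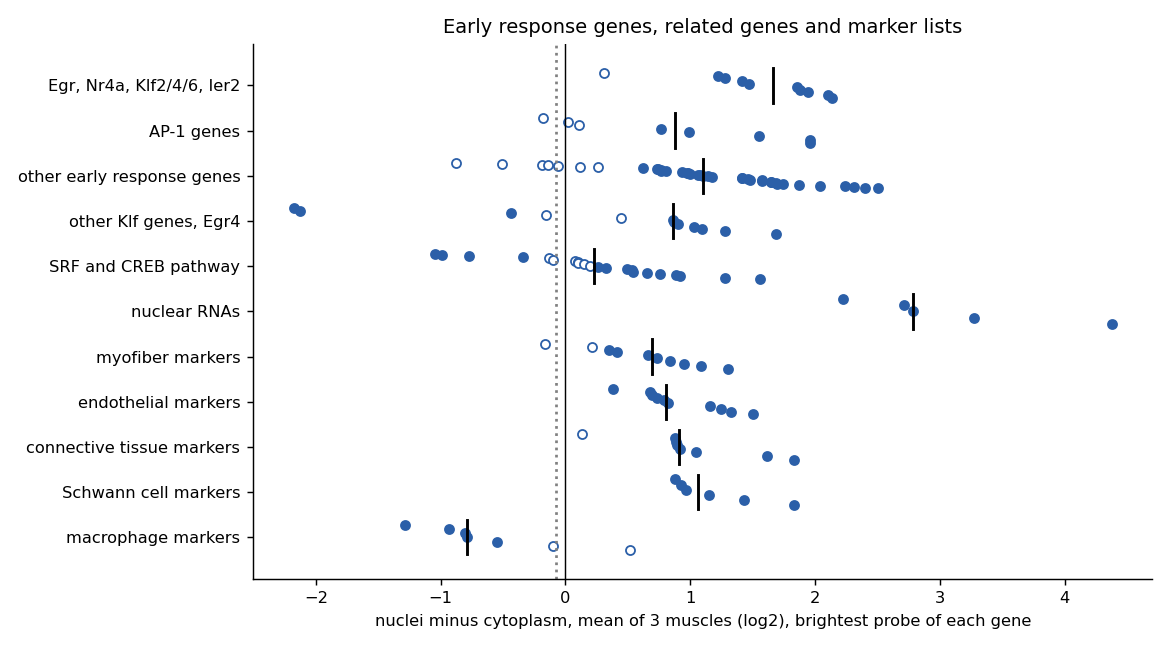
Nuclei minus cytoplasm over the 3 muscles on the log2 scale (horizontal axis) for each tested gene of the members, the related lists and the marker lists (vertical axis); filled points are past the threshold, short bars are list medians and the dotted line is the median of all probes, at -0.08. Most early response genes lie above 0, as do the members, while paralogs and pathway genes spread to both sides.

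The mean profile of the 10 genes, each centred on its mean over the 18 arrays, ran from -1.45 in TA cytoplasm 1 to 1.11 in EDL nuclei 2. Ier2 was the member nearest to it (root mean square difference 0.256) and Klf6 the farthest (0.979). Among 20635 candidate probes of other genes, those of Nrd1 (0.211), Amot (0.218), Vapb (0.228), Fhad1 (0.232) and Sh2b3 (0.233) were nearest over the 18 arrays, closer than any member. Ranked by Pearson correlation instead, as a description over the same 18 arrays, 2310008H04Rik (r = 0.979) and Dcaf8 (r = 0.979) came first.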

How the data were processed

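RNA of 18 pools was labelled with Cy3 and hybridised to Agilent single-colour arrays. The scanner files deposited by the authors hold a processed intensity per spot (Feature Extraction 10.7.3.1, per the submitters' processing notes), corrected for background and not scaled between arrays. A table of normalized intensity, also deposited, holds no value for the 20 member spots and was not used. Here, intensities were taken to log2. Spots without positive and significant signal, or marked as outliers, were set to missing (78.9% to 89.3% of spots per array were positive), and 3671 control spots were dropped. All arrays were then quantile-normalized, and a probe's level is the mean of its spots. Log2 levels of the deposited intensity were fitted with 6 group means in limma 3.58.1 (R 4.3.3, data.table, version 1.17.8; 12 residual and 3.27 prior degrees of freedom), with 2-sided moderated tests.

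A probe was tested with a value on at least 2 of 3 arrays of each group involved, with Benjamini-Hochberg adjustment over all probes tested and a threshold of 0.05. Significance Analysis of Microarrays, which the study used, was replaced by limma. A listed gene is given by its brightest probe, and a marker list by the log2 of its summed linear levels. A floor was tried for Nr4a3 in soleus cytoplasm, where no array was well above background. Each dim array entered with the probe's own signal or, if that was higher, the lowest signal well above background. The fold values stayed equal to the fitted differences, so they are not lower bounds. Profile candidates were well above background on all 9 nuclear arrays. Figures and sequence searches used Python 3.11.15, numpy 2.4.6 and matplotlib 3.10.9.

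The members and lists were chosen with earlier results of these data known. Every member and every probe is given. Per the labels, equally numbered EDL and soleus pools share their mice, and the replicate number was also fitted as a block within EDL and soleus and, separately, within TA, where numbers 1 and 2 share a mouse between fractions and number 3 does not. The deviations of same-numbered pools from their group means correlated between -0.09 and 0.13 over 9 pairs. Alternatives were other scaling, background correction, signal filters, array weights, fits on the groups' own arrays, averaged nuclear arrays, slide as a block and each array left out. The number of arrays limits the precision. The fit was tested on simulated data with the same spread in all groups and no slide effect. That test therefore does not cover the unequal spreads and the slides of the real arrays.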

Additional observations from a re-analysis of the deposited data

Results flagged for a closer look

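The difference of Klf4 between nuclei and cytoplasm was larger in TA than in soleus by 1.63 on the log2 scale (SE 0.41, limma adjusted p = 0.0432), by a test of the difference itself. The call was lost under 16 of 29 alternatives, 10 of them with 1 array left out. It was 2.90 in TA, 1.28 in soleus and 1.38 in EDL. The Klf4 nuclear levels were 8.96, 8.99 and 8.56 in TA and 9.10, 9.10 and 9.22 in soleus, and the cytoplasmic levels were 6.11, 6.34 and 5.36 in TA and 7.75, 8.03 and 7.8 in soleus.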

How the results depend on the processing

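The member differences between nuclei and cytoplasm kept their direction under all alternatives except for Klf6. The Klf6 value was -0.34 over the 3 muscles, -0.57 in EDL and -0.74 in soleus with slide as a random block, -0.10 in TA within the shared slide, and -0.10 to 0.14 in soleus with 1 array left out, none of these past the threshold. Without scaling between arrays Klf6 passed over the 3 muscles at 1.09, in soleus at 1.2 and in TA at 1.17. It also passed in TA with 75th percentile scaling at 1.08 and without TA cytoplasm 2 at 1.15.

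The counts of member probes past the threshold moved most where the spread was handled differently. With the nuclear arrays averaged to 1 sample a muscle, 3 probes passed in EDL, 2 in soleus and 2 in TA between fractions, and 0 in TA against EDL and against soleus nuclei and in soleus against EDL and TA against EDL cytoplasm. With slide as a random block (correlation 0.524), 7 passed over the 3 muscles, 4 in EDL, 4 in soleus and 9 in TA between fractions. That setting gave 0 in TA against EDL nuclei, 0 in TA against soleus nuclei and 2 in TA against EDL cytoplasm. Over the 3 muscles 9 passed when signals had to be well above background and 11 without scaling. Array weights gave 3 in soleus against EDL nuclei, 8 in TA against soleus nuclei, 0 in soleus against EDL cytoplasm and 3 in TA against EDL cytoplasm. On the groups' own arrays these were 3, 7, 0 and 0, with 0 in TA against soleus cytoplasm. With the replicate block 10 passed in EDL between fractions, and no count moved by over 1.5 times. It could not be fitted between TA and the other muscles, since the TA pools form blocks of their own. TA against soleus nuclei gave 7 without scaling, 4 with normexp and 6 when signals had to be well above background. Normexp gave 1 in soleus against EDL nuclei and 0 in their cytoplasm, as did the stricter signal filter in cytoplasm. The interaction gave 4 without scaling, 1 with 75th percentile scaling and 1 without the filter on positive signal. The cause of these shifts was not tested.

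With 1 array left out the counts were 10 over the 3 muscles, 7 to 10 in EDL, 8 to 9 in soleus and 9 to 10 in TA between fractions. In nuclei they were 0 for soleus against EDL, 3 to 6 for TA against EDL and 1 to 5 for TA against soleus. In cytoplasm they were 0 to 1, 5 to 8 and 4 to 6, and for the interaction 0 to 1. TA against EDL fell to 3 without any EDL nuclear pool or without TA nuclei 1 or 3. TA against soleus fell to 1 without any nuclear pool of either, and rose to 4 without soleus cytoplasm 2 or TA cytoplasm 2 and to 5 without TA cytoplasm 1 or 3. The interaction gave 1 without EDL cytoplasm 1 or 3 or TA cytoplasm 1. The larger Klf4 difference in TA than in soleus kept its direction, from 1.34 to 1.83, with adjusted p from 0.0175 to 0.106 with 1 array left out. It was 0.59 without scaling (adjusted p = 0.304), 0.98 with normexp (0.061), 1.43 with signals well above background (0.0548) and 1.32 with slide as a block (0.354). Unchanged in size, it missed the threshold on the groups' own arrays (0.0675) and with the nuclear arrays averaged (0.9999). The authors' matrix could not be run for the members.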
